A study of Homo sapiens with 8 samples.

Results

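The 10 genes described here, MT-ND1, MT-ND2, MT-ND3, MT-ND4, MT-ND5, MT-ND6, MT-CO1, MT-CO2, MT-CO3 and MT-CYB, are encoded in mitochondrial DNA and code for subunits of the respiratory chain. They were taken by their symbols from the deposited gene counts, in which 37526 gene names are listed for all 8 libraries, 56470 for the untreated and 56609 for the ATRA-treated ones. All 10 were listed in every library and passed the filter on low counts in every comparison.

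RNA-seq was performed in NB4 cells, a human line of acute promyelocytic leukemia (APL) with the PML/RARα fusion. Cells stably transduced with an shRNA against KDM3B (shKDM3B), an H3K9 demethylase, were compared with control cells (scramble), and both were sequenced untreated and after all-trans retinoic acid (ATRA), which drives APL cells towards granulocytes. The groups were scramble, shKDM3B, scramble+ATRA and shKDM3B+ATRA, with 2 libraries each. The labels call the control an empty vector and the paper a scrambled shRNA, and neither states which KDM3B shRNA was sequenced. All 4 groups share the NB4 background and the puromycin vector used for stable transduction. Per the labels, ATRA was used at 1 µM for 24 or 48 hours, without a statement of which time applies to which library. The methods of the paper give the dose as 1 mM. The methods speak of replicate experiments without saying whether the libraries of a group came from separate cultures, so p-values measure the spread between these libraries, which may be technical.

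Human mitochondrial DNA is a small circle transcribed on both strands into long precursors, which are cut at the tRNA genes that lie between most protein genes to release the individual mRNAs. The MT-ND genes encode core subunits of complex I (NADH dehydrogenase), MT-CYB encodes cytochrome b of complex III, and the MT-CO genes encode the catalytic core of complex IV (cytochrome c oxidase). Most other subunits of these complexes are made from nuclear genes and imported, so that both genomes contribute to each complex.

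In GENCODE v44 on hg38, the 10 genes lie on chromosome M, which has 16569 bases, and each consists of a single exon with no intron. MT-ND6, from 14149 to 14673, is on the minus strand, and the other 9 are on the plus strand. MT-ND5 ends at 14148, next to the end of MT-ND6, so the 2 genes run towards each other. This boundary is shown because MT-ND6 and MT-ND5 are compared below; it covers chrM:14134-14163 on each strand, 5′ to 3′, with the last 3 bases of the gene of that strand in capitals:
MT-ND5 end, plus strand: ctcctaatcacaTAAcctattcccccgagc
MT-ND6 end, minus strand: gctcgggggaatAGGttatgtgattaggag

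The starts of the same 2 genes show how the coding strands differ in base composition, with the start codon in capitals. The start of MT-ND6 lies on the minus strand at chrM:14644-14673, and that of MT-ND5 on the plus strand at chrM:12337-12366:
MT-ND6: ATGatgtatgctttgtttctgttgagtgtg
MT-ND5: ATAaccatgcacactactataaccacccta
The coding strand of MT-ND6 was 35.6% G and 7.05% C over the gene, whereas in the other 9 genes G ranged from 9.50% to 16.2% and C from 29.5% to 36.0%.

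A further junction is shown because a neighbouring gene enters the results. It covers chrM:7431-7460 on the plus strand and has the last 3 bases of MT-CO1 in capitals, followed by the minus-strand tRNA gene MT-TS1:
MT-CO1 end: tacataaaatctAGAcaaaaaaggaaggaa

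Gene counts summed to between 9708739 and 33017787 in a library, and the 10 genes took 4.28% to 5.94% of them. The libraries fell into 2 sets by the percentage of uniquely placed pairs that HTSeq assigned to no gene, called the share outside genes here. If counting was by strand, which is not given, pairs inside a gene on its opposite strand also belong to this share. The share was 8.49% to 9.62% in 5 libraries, the 4 untreated ones and scramble+ATRA replicate 1. It was 50.02% to 51.4% in 3 libraries, scramble+ATRA replicate 2 and both shKDM3B+ATRA libraries. The share of ambiguous pairs was 3.91% to 4.31% in the first set and 2.39% to 2.57% in the second. In shKDM3B cells the set and the treatment coincide and cannot be told apart, whereas the 2 scramble+ATRA libraries are 1 of each set. KDM3B itself was at 187 and 188 CPM (counts per 1000000 gene counts after TMM scaling) in scramble, 76.3 and 86.2 in shKDM3B, 196 and 121 in scramble+ATRA, and 52.5 and 57.4 in shKDM3B+ATRA. The summed CPM of 8 promyelocyte and myeloid markers, of which MPO was the highest in each group, was 4642 to 5781 in scramble, 8724 to 9946 in shKDM3B, 1346 to 1766 in scramble+ATRA and 2867 to 3706 in shKDM3B+ATRA. That of 6 ATRA response genes was 176 to 180, 182 to 224, 6045 to 6902 and 2925 to 3380 in the same order. Both sums did not overlap between knockdown and control, untreated or treated, but genes within a sum differed in direction. Under ATRA, MPO was higher in shKDM3B (2220 to 3128 against 616 to 730 CPM). SPI1 (224 to 259 against 304 to 495) and CEBPE (259 to 286 against 335 to 427) were lower. The median log2 fold change of the 5 myeloid markers tested was -0.48. Untreated, CD38 was higher in shKDM3B (136 to 158 against 108 to 116 CPM) and ITGAM lower (9.86 to 14.9 against 20.5 to 26.1). The median of the 4 ATRA response genes tested was -0.14. The part of both sums in the results below was not tested. Markers of other cell types summed to at most 20.3 CPM for T cells, 28.2 for B cells, 18.9 for fibroblasts or epithelium and 0.737 for erythroid cells. With ATRA, the B cell sum went from 5.33 to 5.67 up to 24.5 to 28.2 in scramble. In shKDM3B it went from 3.96 to 4.60 up to 18.5 to 19.2. The T cell sum went from 11.6 to 14.4 down to 0.797 to 1.84 in scramble, and from 10.3 to 20.3 down to 0.211 to 1.00 in shKDM3B.

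Per kilobase of gene, the MT-CO genes and MT-ND4 had the 4 highest mean levels in every group. In scramble, MT-CO3 had 12684 ± 22.7 CPM per kb (SD, n = 2), followed by MT-CO2 with 9545 ± 345 and MT-CO1 with 9026 ± 1816, whose ranges overlapped. MT-ND4 followed at 6638 ± 908 CPM per kb, then MT-ND1 at 4028 ± 918 and MT-ND2 at 3607 ± 349, which overlapped, and MT-ND3 at 1866 ± 130. MT-CYB with 1157 ± 151, MT-ND5 with 1062 ± 349 and MT-ND6 with 784 ± 491 CPM per kb overlapped one another at the bottom.

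In shKDM3B, MT-CO3 also came first, at 10856 ± 460 CPM per kb, and MT-ND6 last, at 672 ± 469. In shKDM3B+ATRA, MT-CO1 came first at 10552 ± 1246 CPM per kb, overlapping MT-CO2 at 9671 ± 59.5, and MT-CO3 was next at 8647 ± 610. MT-ND6 was there at 3350 ± 119 CPM per kb, above MT-ND5 at 2588 ± 160, and MT-CYB was last at 1983 ± 95.6. In scramble+ATRA the lower positions could not be ordered, since MT-ND5 alone ranged from 875 to 2597 CPM per kb between the 2 libraries.

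**Figure D1:**
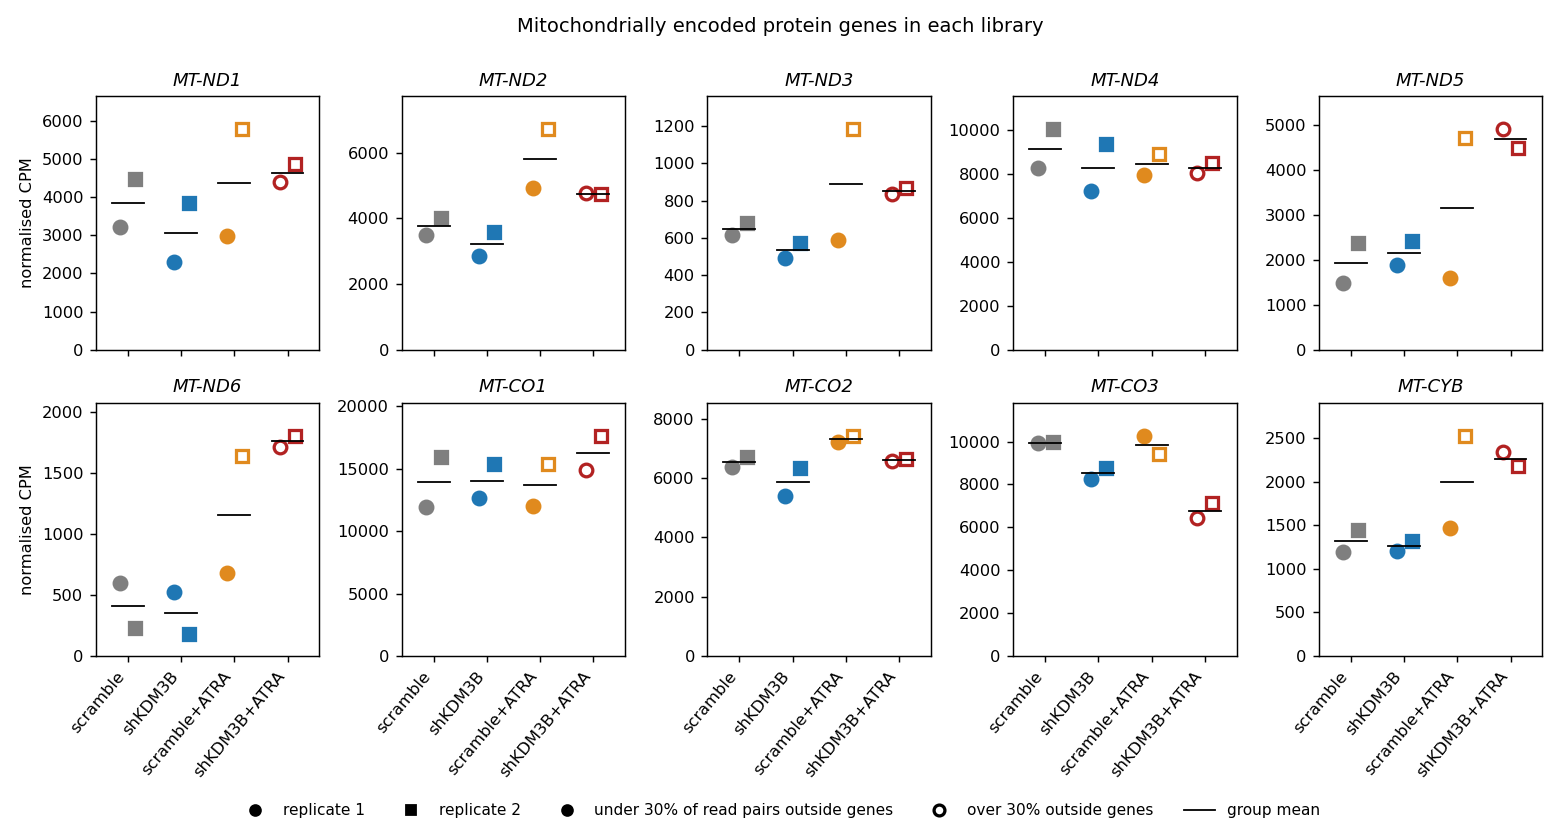
Normalised CPM (vertical axes, starting at 0) of each of the 10 genes in the 8 libraries by group. Circles mark replicate 1, squares replicate 2 and lines group means. Open symbols mark libraries with a share outside genes over 30%. The 3 open symbols of MT-ND5 lie between 4483 and 4894 CPM and the 5 filled ones between 1477 and 2417, whereas the symbols of MT-CO2 mix.

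The first comparison asked what KDM3B knockdown does to these genes in untreated cells. None of the 10 passed the test, which called a gene at an unadjusted p under 0.05 from edgeR's quasi-likelihood test and a fold change of at least 1.5. Among all 13855 genes tested, 7.01% were called. DESeq2 called 0 of the 10 and 5.72% of all genes, and 0 had an unadjusted p under 0.05 with edgeR. The log2 fold changes ran from -0.33 for MT-ND1 to 0.16 for MT-ND5, with a median of -0.19 against 0.00022 over all genes, and 8 of 10 were below 0. In bulk samples such as these, fewer cells of a type and less RNA per cell cannot be told apart.

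MT-CO3, a core subunit of complex IV, was at 9932 and 9957 CPM in scramble and at 8256 and 8766 in shKDM3B. MT-CO2, which receives electrons from cytochrome c, was at 6362 and 6696 CPM in scramble and at 5388 and 6357 in shKDM3B. MT-ND3, a small complex I subunit, was at 614 and 677 CPM in scramble and at 493 and 575 in shKDM3B. These 3 genes were lower in both shKDM3B libraries than in both scramble libraries, a separation seen in 19.5% of all genes, and their log2 fold changes were -0.23 (SE 0.12), -0.15 (SE 0.13) and -0.27 (SE 0.15). The other 7 genes overlapped between the groups. MT-ND6 was at 594 and 230 CPM in scramble and at 527 and 178 in shKDM3B, and with 1 of the 4 libraries left out its log2 fold change ran from -1.21 to 0.62, with calls in both directions. In each of these 4 fits 1 of the 10 genes was called, MT-ND1 without shKDM3B replicate 2 and MT-ND6 in the others, beside 6.49% to 11.6% of all genes. MT-CO1 showed nearly equal levels, with 11939 and 15898 CPM in scramble and 12614 and 15392 in shKDM3B.

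The second comparison asked for the effect of the knockdown under ATRA. Again 0 of 10 genes were called, while 6.79% of 14281 genes were, and DESeq2 called 0 of the 10 and 7.14% of all genes. MT-CO3 was the 1 gene of the 10 with an unadjusted p under 0.05. It was at 10271 and 9422 CPM in scramble+ATRA and at 6441 and 7118 in shKDM3B+ATRA, so that all 4 libraries separated. Its log2 fold change was -0.53 (SE 0.14), below the 1.5-fold threshold, with an adjusted p of 0.502 from edgeR's quasi-likelihood test. Against scramble+ATRA replicate 2 alone, which belongs to the same set by the share outside genes, MT-CO3 was lower by a log2 fold change of -0.46, and against replicate 1 alone by -0.60. The groups also separated for MT-ND2 and MT-CO2, which with MT-CO3 were lower in both knockdown libraries, as were 23.5% of all genes, and for MT-ND6, which was higher in both, as were 26.1%. MT-ND6 was at 677 and 1633 CPM in scramble+ATRA and at 1715 and 1803 in shKDM3B+ATRA, with a log2 fold change of 0.61 (SE 0.47).

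The remaining 9 genes had log2 fold changes from -0.29 to 0.61 under ATRA, and 4 of them, MT-ND1, MT-ND3, MT-ND4 and MT-CYB, changed sign with the control library used. MT-ND5 was at 1585 and 4705 CPM in scramble+ATRA and at 4894 and 4483 in shKDM3B+ATRA. MT-CYB was at 1469 and 2528 CPM in scramble+ATRA and at 2340 and 2186 in shKDM3B+ATRA. In both genes, the shKDM3B+ATRA values lay close to scramble+ATRA replicate 2 or between the 2 controls. Without replicate 1, 0 of 10 genes were called with a median log2 fold change of -0.15, beside 17% of all genes called. Without replicate 2, MT-ND1, MT-ND5, MT-ND6 and MT-CYB were called higher and MT-CO3 lower, beside 23.2% of all genes called higher and 13.3% called lower, and MT-ND5 reached a log2 fold change of 1.56. In these fits the lone library is assumed to vary like the other group.

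**Figure D2:**
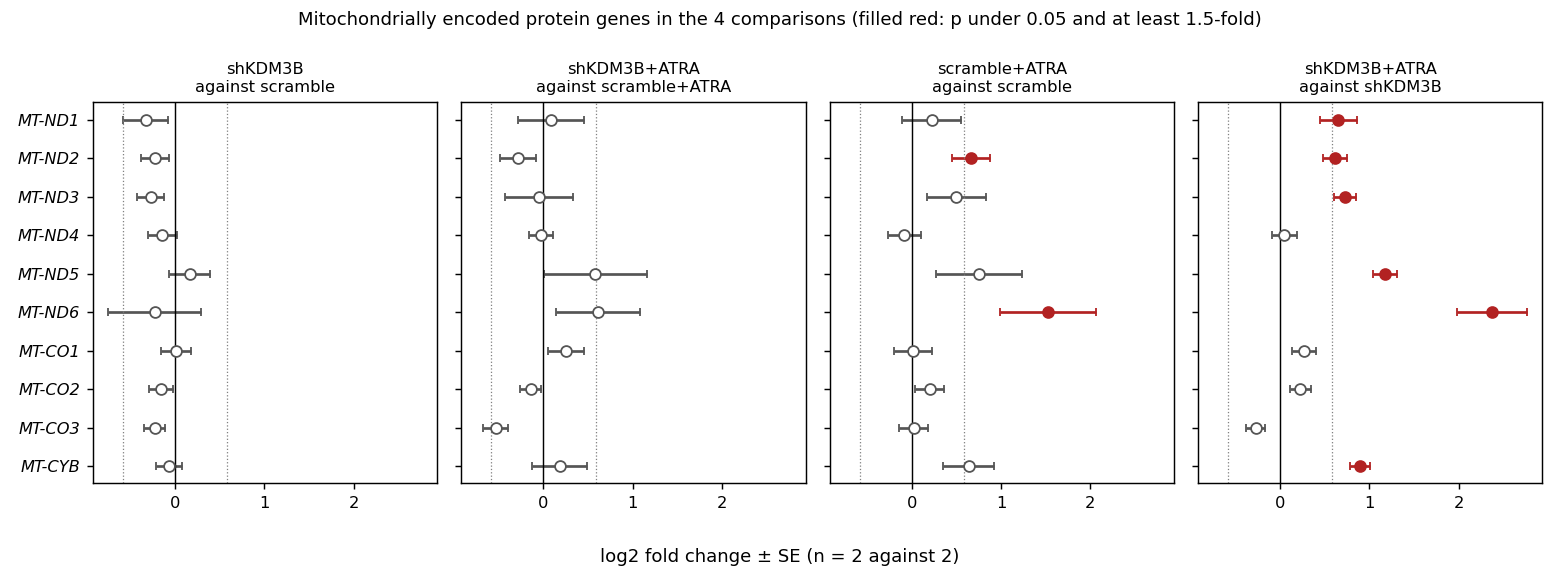
Log2 fold change (horizontal axes) with its SE for each gene in the 4 comparisons of 2 against 2 libraries. Filled red symbols mark genes called, dotted lines 1.5-fold. No gene is marked as called in the knockdown comparisons, and the called genes lie to the right in the ATRA comparisons, with MT-ND6 farthest at 2.37 in shKDM3B cells.

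The third comparison asked what ATRA does in scramble cells. MT-ND2 and MT-ND6, both complex I genes, rose, and 0 of 10 fell, beside 15% of 12429 genes called higher and 10.8% called lower. MT-ND6 was not called with all libraries in one fit, and neither gene was with the set of the library as a term, as given below. MT-ND2 was no longer called without either scramble library or without scramble+ATRA replicate 2, and MT-ND6 without scramble replicate 2. MT-ND2 was at 3501 and 4016 CPM in scramble and at 4923 and 6706 in scramble+ATRA. Both treated libraries lay above both controls, and the log2 fold change was 0.67 (SE 0.21) with an adjusted p of 0.0921 from edgeR's quasi-likelihood test. MT-ND6 was at 594 and 230 CPM in scramble and at 677 and 1633 in scramble+ATRA. The groups did not overlap, and the log2 fold change was 1.53 (SE 0.54) and edgeR's quasi-likelihood test gave an adjusted p of 0.117. None of the 10 had an adjusted p under 0.05, 2 had an unadjusted one under 0.05, and DESeq2 called 2 of 10 and 14.3% of all genes higher. The groups separated with higher treated values in 4 of 10 genes, MT-ND2, MT-ND6, MT-CO2 and MT-CYB, as in 29% of all genes.

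The other 8 genes had values that did not pass the test. MT-CYB was at 1198 and 1442 CPM in scramble and at 1469 and 2528 in scramble+ATRA, with a log2 fold change of 0.64 (SE 0.29). MT-ND5, a large complex I subunit of the proton-pumping arm, was at 1477 and 2370 CPM in scramble and at 1585 and 4705 in scramble+ATRA, and the groups overlapped. MT-ND3 was at 614 and 677 CPM in scramble and at 591 and 1183 in scramble+ATRA. In MT-CYB, MT-ND5 and MT-ND3 the 2 treated libraries thus stood apart: replicate 2 was far above the controls, and replicate 1 was within or near them. In MT-ND4, MT-CO1 and MT-CO3, replicate 2 did not exceed both controls.

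Between the 2 scramble+ATRA libraries, CPM in replicate 2 was 2.97 times that in replicate 1 for MT-ND5, 2.41 times for MT-ND6, 2.001 times for MT-ND3, 1.94 times for MT-ND1 and 1.72 times for MT-CYB. These 5 of 10 genes exceeded 1.5-fold, as did 29.8% of 13528 genes. In shKDM3B+ATRA, 0 of 10 genes did, against 8.94% of genes. MT-CO1, MT-CO2, MT-CO3 and MT-ND4 differed between the scramble+ATRA libraries by ratios of 0.917 to 1.28.

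Using scramble+ATRA replicate 1 alone, which has the same low share outside genes as the controls, MT-ND6 was called with a log2 fold change of 0.72 and the median of the 10 genes was -0.03. MT-ND1, MT-ND3 and MT-ND5 had log2 fold changes of -0.36, -0.12 and -0.27 there. Using replicate 2 alone, MT-ND1, MT-ND2, MT-ND3, MT-ND5, MT-ND6 and MT-CYB were called higher with a median over the 10 genes of 0.75, beside 21.4% of all genes called higher. Genes called higher were 12.9% of all with replicate 1 alone.

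**Figure D3:**
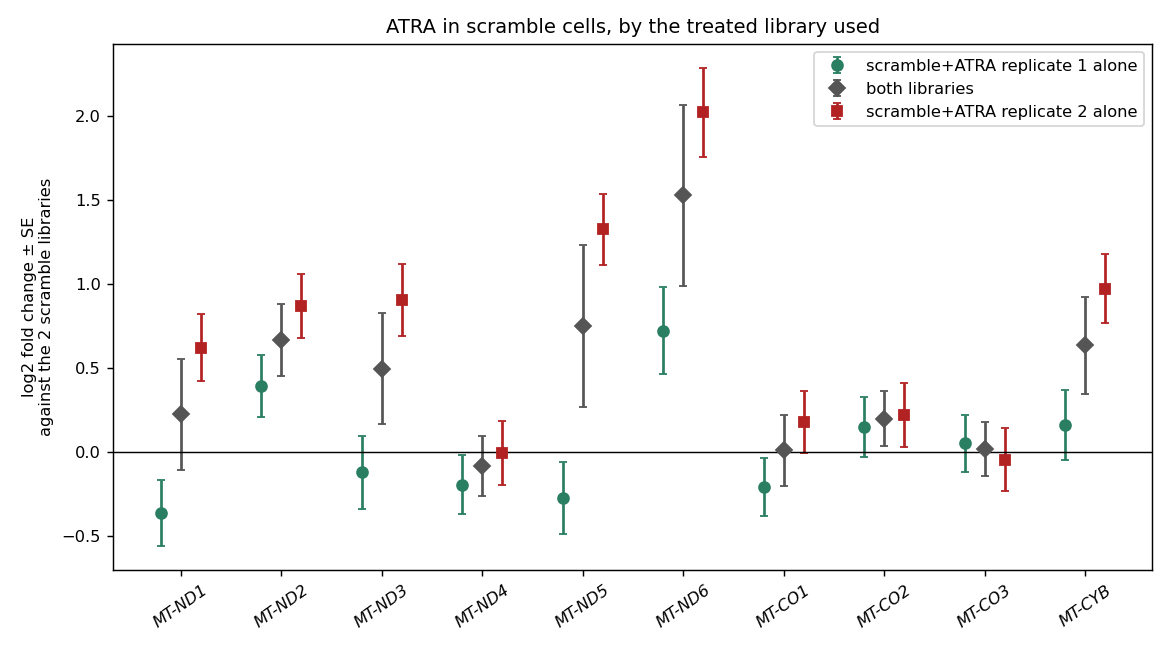
Log2 fold change (vertical axis) with its SE of scramble+ATRA against the 2 scramble libraries, for each gene, from replicate 1 alone (green circles), both libraries (grey diamonds) and replicate 2 alone (red squares). MT-ND5 moves from -0.27 to 1.33 between the single libraries, whereas MT-CO2 and MT-CO3 stay near 0.

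The fourth comparison asked the same of ATRA in shKDM3B cells. Here 6 of 10 genes rose, 5 complex I genes and MT-CYB, and 0 fell, beside 24% of 12756 genes called higher and 18.3% called lower. The same 6 passed an adjusted p of 0.05 from edgeR's quasi-likelihood test, which 23% of genes did in this direction, and DESeq2 called 6 of 10 beside 22% of genes. The calls of MT-ND1, MT-ND2 and MT-ND3 were lost, leaving 3 of 10, without shKDM3B replicate 1, where 25.1% of all genes were called higher, and also with all libraries in one fit, where 20.3% were. The median log2 fold change was 0.63 against 0.04 over all genes. On the scaling of these 4 libraries alone, the groups separated with higher treated values in 8 of 10 genes, as in 40.9% of genes. One of the 8, MT-CO1, overlapped on the scaling of all libraries, which the printed CPM use.

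MT-ND6 was at 527 and 178 CPM in shKDM3B and at 1715 and 1803 in shKDM3B+ATRA, and its log2 fold change of 2.37 (SE 0.39, adjusted p = 0.000835) was the highest of the 10. MT-ND5 was at 1890 and 2417 CPM in shKDM3B and at 4894 and 4483 in shKDM3B+ATRA, a log2 fold change of 1.17 (SE 0.14, adjusted p = 0.000112). The untreated libraries differed 2.95-fold in MT-ND6 and by a ratio of 1.28 in MT-ND5, and in both genes the treated libraries lay above both.

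MT-CYB was at 1200 and 1324 CPM in shKDM3B and at 2340 and 2186 in shKDM3B+ATRA, a log2 fold change of 0.89 (SE 0.12, adjusted p = 0.000198). MT-ND3 was at 493 and 575 CPM in shKDM3B and at 835 and 868 in shKDM3B+ATRA, a log2 fold change of 0.73 (SE 0.12, adjusted p = 0.00105). Replicates of these 2 genes lay close together, and the groups did not overlap.

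MT-ND1 was at 2292 and 3839 CPM in shKDM3B and at 4407 and 4883 in shKDM3B+ATRA, a log2 fold change of 0.65 (SE 0.21, adjusted p = 0.0255). MT-ND2 was at 2839 and 3590 CPM in shKDM3B and at 4759 and 4747 in shKDM3B+ATRA, a log2 fold change of 0.62 (SE 0.13, adjusted p = 0.0039). Both genes were near the 1.5-fold threshold, and MT-ND1 had the wider spread.

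Of the complex IV genes, MT-CO1, which holds the oxygen-reducing centre, was at 12614 and 15392 CPM in shKDM3B and at 14912 and 17630 in shKDM3B+ATRA, and was not called. MT-CO2 had a log2 fold change of 0.22 (SE 0.12). MT-CO3 was at 8256 and 8766 CPM in shKDM3B and at 6441 and 7118 in shKDM3B+ATRA. It was the 1 gene of the 10 with lower treated values in both libraries, a separation seen in 35.9% of genes, with a log2 fold change of -0.28 (SE 0.11, adjusted p = 0.0646) that did not reach 1.5-fold. MT-ND4 overlapped, with a log2 fold change of 0.05 (SE 0.14).

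With the set of the library, as given by the share outside genes, added as a term in a fit of all 8 libraries, edgeR called 0 of 10 genes for ATRA in either cell line, beside 24.3% of all genes in scramble and 22.1% in shKDM3B. MT-ND2 in scramble, with a log2 fold change of 0.39 (SE 0.16), was the 1 gene with an unadjusted p under 0.05, DESeq2 was not run with this term, and the medians were -0.04 in scramble and -0.16 in shKDM3B. In this fit the set effect comes from the difference between the 2 scramble+ATRA libraries alone. MT-ND6 had the highest log2 fold changes of the 10, 0.72 (SE 0.59) in scramble and 1.05 (SE 0.85) in shKDM3B, and MT-ND5 was at -0.28 (SE 0.26) and -0.45 (SE 0.36). This setting was chosen after the data were seen.

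Whether the ATRA response differed between the 2 cell lines was tested by an interaction term fitted to the 8 libraries. It passed for 0 of 10 genes with edgeR, beside 3.99% of 13528 genes, for 0 with DESeq2, beside 3.7%, and 0 had an unadjusted p under 0.05. Estimates ran from -0.31 for MT-CO3 to 0.83 for MT-ND6 on the log2 scale, with standard errors of 0.14 and 0.90. Without scramble+ATRA replicate 2, MT-ND1, MT-ND3, MT-ND5 and MT-CYB were called, each with a higher change in shKDM3B cells, beside 8.34% of all genes in this direction. Without replicate 1, 0 of 10 were called, beside 5.65% of all genes in either direction.

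MT-ND6 was compared with MT-ND5 inside each library, because this ratio needs no scaling between libraries. MT-ND6 had 40.2 and 9.68 counts per 100 counts of MT-ND5 in scramble, 27.9 and 7.38 in shKDM3B, 42.7 and 34.7 in scramble+ATRA, and 35.03 and 40.2 in shKDM3B+ATRA. The 2 untreated libraries labelled replicate 2 thus stood below the other 6, which ranged from 27.9 to 42.7 in both sets. Between scramble+ATRA replicates 1 and 2 the ratio changed by a factor of 0.813, while MT-ND6 itself was 2.41 times as high in replicate 2.

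Against the summed counts of the other 9 genes, the order of the libraries was different. MT-ND6 had 1.28 and 0.413 counts per 100 in scramble, 1.25 and 0.346 in shKDM3B, 1.38 and 2.63 in scramble+ATRA, and 3.22 and 3.16 in shKDM3B+ATRA. All 3 libraries with the high share outside genes exceeded all 5 with the low share. From scramble+ATRA replicate 1 to replicate 2 this ratio changed by a factor of 1.905, so the choice of reference turned the direction. In scramble and shKDM3B, MT-ND6 in replicate 2 was 0.387 and 0.339 times its CPM in replicate 1, whereas the other 9 genes had ratios of 1.003 to 1.67 in these 2 groups.

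The tRNA genes of the minus strand, the strand of MT-ND6, differed between the same sets. The 8 minus-strand tRNA genes summed to 237 to 481 counts in the 5 libraries with a low share outside genes and to 10545 to 16771 in the other 3, that is 14.7 to 59.4 and 2021 to 2428 per 100000 counts of the 10 genes. The 14 plus-strand tRNA genes summed to 88 to 308 counts and to 26 to 70, that is 10.9 to 18.2 and 4.98 to 10.1 per 100000. Within the low set, scramble and shKDM3B replicate 1 had 39.4 and 30.8 minus-strand tRNA counts per 100000, and their replicates 2 had 17.8 and 14.7, the same order as for MT-ND6. MT-TS1, the serine tRNA gene that borders MT-CO1 in the sequence above, was at 0.491 to 2.11 CPM in untreated libraries, at 7.78 in scramble+ATRA replicate 1 and at 684 to 993 in the other 3.

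Whether reads were counted by strand is not given in the sources used here, so reads of MT-ND6 and reads of the opposite strand of its region cannot be told apart, and the same holds for the tRNA genes. The part that the set of the library and its strand make-up have in the values of MT-ND6 was not tested beyond the fit above.

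**Figure D4:**
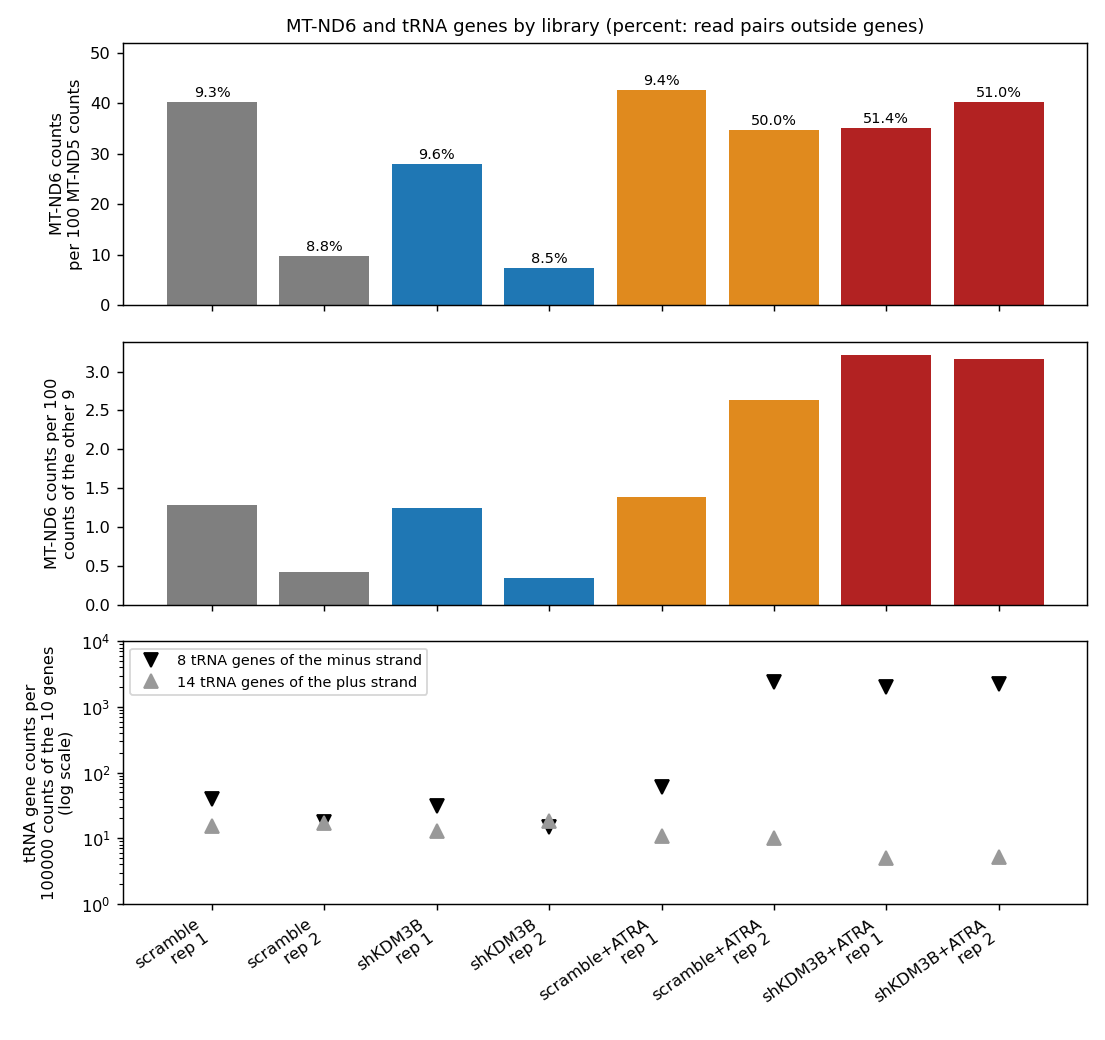
Counts of MT-ND6 per 100 counts of MT-ND5 (top) and per 100 counts of the other 9 genes (middle) in each of the 8 libraries. The bottom panel gives counts of minus-strand and plus-strand tRNA genes per 100000 counts of the 10 genes on a log scale. The share outside genes is printed above the bars of the top panel. The last 3 libraries, with 50.02% to 51.4% outside genes, are highest in the middle panel and for minus-strand tRNA genes, lowest for plus-strand tRNA genes, and not highest in the top panel.

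The make-up of the 10 genes within a library gave the same split without any scaling. Complex I genes made up 35.8% to 39.1% of the summed counts in the 5 libraries with a low share outside genes and 42.9% to 45.4% in the other 3, and complex IV genes 58.3% to 61.4% and 50.6% to 53.3%. MT-CYB, the complex III gene, took 2.54% to 2.96% and 3.71% to 4.26%. MT-CO1 was the largest part, at 24.1% to 29.7% and 24.2% to 29.96%, and did not separate the sets.

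MT-CO3 took 16.9% to 21.1% of the summed counts in the low set and 11.7% to 14.8% in the high set. Within the high set, scramble+ATRA replicate 2 was at 14.8% and the shKDM3B+ATRA libraries at 11.7% and 12.1%. MT-ND5 took 3.14% to 4.67% and 7.39% to 8.91%, MT-ND6 0.344% to 1.36% and 2.56% to 3.12%, and MT-ND4 16.0% to 18.1% and 13.99% to 14.7%. The 2 sets did not overlap in these 4 genes, in MT-CYB and MT-ND3, or, by under 0.1 percentage points, in MT-ND1 and MT-CO2, while MT-ND2 and MT-CO1 overlapped.

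**Figure D5:**
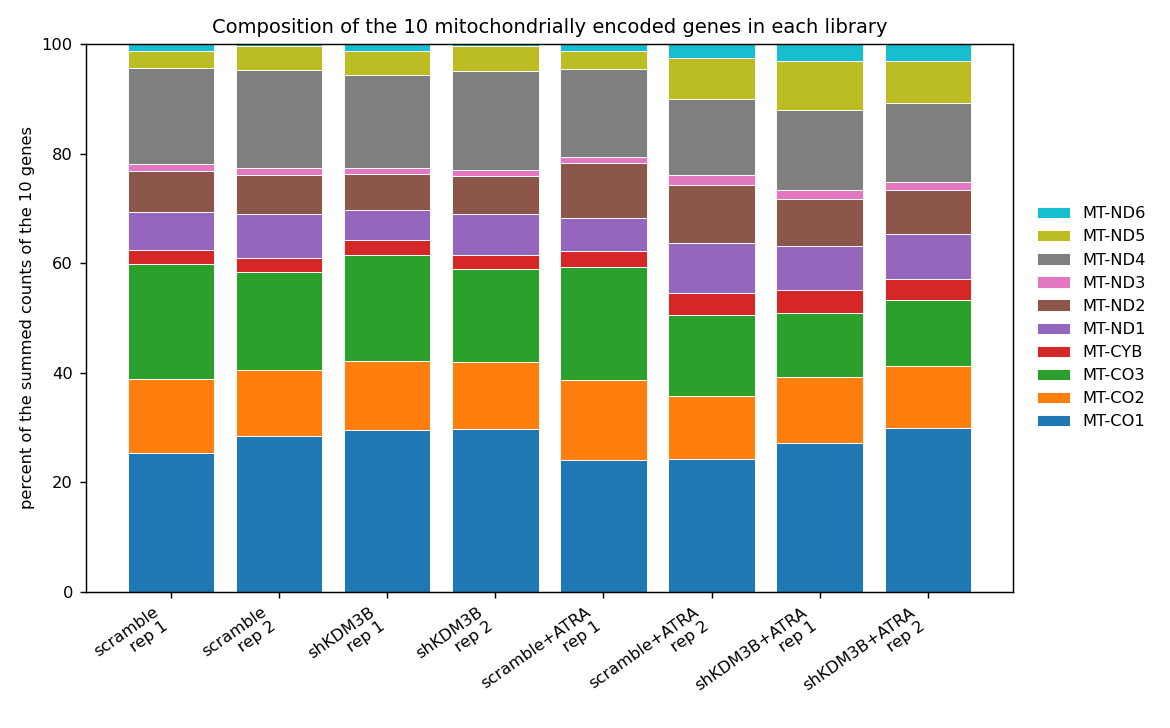
Percent of the summed counts of the 10 genes taken by each gene (stacked bars, vertical axis to 100%) in the 8 libraries. The MT-ND5 and MT-ND6 segments are larger and the MT-CO3 segment is smaller in the last 3 bars, where MT-CO3 takes 11.7% to 14.8%.

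The remaining genes of mitochondrial DNA were described for context. MT-ND4L, a small complex I subunit gene, fell with ATRA in scramble cells, with a log2 fold change of -0.73 (SE 0.25, adjusted p = 0.11), and had -0.57 (SE 0.13) in shKDM3B cells. MT-ATP8, an ATP synthase subunit gene, fell with ATRA in shKDM3B cells by 1.79 on the log2 scale (SE 0.18, adjusted p = 4.2e-05). It was at 111 CPM in scramble+ATRA replicate 1, near the 113 and 102 of scramble, and at 30.9 in replicate 2, near the 35.4 and 28.1 of shKDM3B+ATRA. MT-ND4L overlaps the start of MT-ND4 and MT-ATP8 that of MT-ATP6, so their counts depend on how shared reads were assigned. MT-ATP6, an ATP synthase subunit gene next to MT-CO3, had a log2 fold change of -0.36 (SE 0.16) in shKDM3B+ATRA against scramble+ATRA and was not called. MT-RNR2, the large ribosomal RNA, rose with ATRA in shKDM3B cells with a log2 fold change of 0.88 (SE 0.15, adjusted p = 0.0012), and MT-RNR1, the small one, had 0.49 (SE 0.12). MT-RNR2 was at 3660 CPM in scramble+ATRA replicate 1, below the 3971 and 4274 of scramble, and at 6880 in replicate 2, against 5806 and 6563 in shKDM3B+ATRA. Of 27 such genes, 14 passed the filter in each ATRA comparison, of which 6 rose and 2 fell in scramble and 7 rose and 3 fell in shKDM3B. In shKDM3B cells, MT-TY (6 and 6 counts untreated, 1533 and 1541 treated) and MT-TA (5 and 5, 23 and 18) passed through the treated libraries. MT-TI (18 and 44, 1 and 1) passed through the untreated ones. The direction of the calls of these genes was therefore close to fixed by the filter. Of all genes, 15% rose and 10.8% fell in scramble and 24% and 18.3% in shKDM3B. With the set as a term, 3 of these mitochondrial genes rose and 1 fell in each cell line, beside 12.9% and 11.5% of all genes in scramble and 11.9% and 10.2% in shKDM3B. These shares over all genes also apply to the counts with this term for ATRA in the lists below. The minus-strand tRNA genes MT-TS1, MT-TQ, MT-TY and MT-TP were among those called higher without this term. MT-TP was at 6.99 CPM in scramble+ATRA replicate 1, between the scramble libraries at 7.38 and 4.45, and at 147 in replicate 2.

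Nuclear genes that act on mitochondrial DNA and RNA were counted from lists. Of 16 genes for transcription and replication of mitochondrial DNA, 0 were called for the knockdown in untreated cells by edgeR, with 0 at an unadjusted p under 0.05 and 0 called by DESeq2, beside 7.01% of all genes with edgeR and 5.72% with DESeq2. Under ATRA the knockdown called 1 lower, beside 4.37% of all genes, while ATRA called 2 higher and 1 lower in each cell line, beside the 15% and 10.8% of all genes called in scramble and the 24% and 18.3% in shKDM3B. With the set as a term, ATRA called 1 higher and 4 lower in scramble and 0 higher and 2 lower in shKDM3B. POLRMT, the mitochondrial RNA polymerase, was at 58.0 and 73.2 CPM in scramble, 64.9 and 80.4 in shKDM3B, 43.4 and 26.6 in scramble+ATRA, and 23.8 and 27.7 in shKDM3B+ATRA. It fell with ATRA in both, with log2 fold changes of -0.87 (SE 0.29) and -1.44 (SE 0.17, adjusted p = 9.6e-05). TOP1MT, the mitochondrial topoisomerase, was at 161 and 132 CPM in scramble+ATRA against 55.6 and 57.0 in scramble, and at 46.9 and 80.9 in shKDM3B+ATRA against 68.4 and 55.5 in shKDM3B. It rose with ATRA in scramble (log2 fold change 1.41, SE 0.21, adjusted p = 0.0054), was lower in shKDM3B+ATRA than in scramble+ATRA (-1.19, SE 0.33, adjusted p = 0.502), and its interaction was -1.33 (SE 0.37, adjusted p = 1).

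Of 20 genes of mitochondrial RNA processing and stability, ATRA called 2 higher and 2 lower in scramble, where 15% and 10.8% of all genes were called, and 2 higher and 3 lower in shKDM3B, where 24% and 18.3% were. The knockdown called 0, beside 7.01% of all genes in untreated and 6.79% in treated cells, with 0 and 2 at an unadjusted p under 0.05. With the set as a term, ATRA called 0 higher and 5 lower in scramble and 0 higher and 6 lower in shKDM3B. REXO2, a mitochondrial oligoribonuclease, was at 11.3 and 11.6 CPM in scramble+ATRA and at 11.1 and 10.5 in shKDM3B+ATRA, against 17.03 to 27.1 in the untreated libraries. It fell in both cell lines, and the treated libraries of both sets lay close together. HSD17B10, a subunit of mitochondrial RNase P, fell with ATRA in shKDM3B by 0.92 on the log2 scale (SE 0.14). PTCD1 was at 55.4 to 99.2 CPM in the 3 libraries with a high share outside genes and at 6.42 to 10.4 in the other 5, and its count is uncertain because it overlaps the read-through gene ATP5J2-PTCD1. Of 6 tested regulators of mitochondrial biogenesis, ATRA called 1 higher and 1 lower in scramble and 2 higher and 1 lower in shKDM3B, beside the 15%, 10.8%, 24% and 18.3% of all genes. ESRRA rose with ATRA in both cell lines (log2 fold changes 0.78, SE 0.22, and 0.90, SE 0.14), PPRC1 fell in both (-0.86, SE 0.28, and -0.996, SE 0.13), and GABPA rose in shKDM3B (1.49, SE 0.17). GABPA was at 108 to 121 CPM in the 3 libraries with a high share outside genes, and at 48.1 in scramble+ATRA replicate 1, within the 35.5 to 60.6 of the untreated libraries. With the set as a term, ATRA called 1 of the 6 higher in scramble and 2 in shKDM3B, and 0 lower. The knockdown called 0 of these 6 with edgeR, beside the same 7.01% and 6.79%, with 0 at an unadjusted p under 0.05, and DESeq2 called 0 in this list and the 20 genes before it.

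The nuclear-encoded partners of the same complexes were counted in the same way. For the knockdown under ATRA, 5 of 35 tested complex I subunit genes, 1 of 9 of complex III and 3 of 11 of complex IV were called lower and 0 higher, beside 4.37% of genes called lower, and the medians were -0.40, -0.33 and -0.39 against 0.03 over all genes and over the 10 mitochondrial genes. All of these had adjusted p-values of 0.502 or more with edgeR, and DESeq2 called 5, 2 and 4 lower, beside 4.48% of all genes. NDUFB7 was at 68.4 and 72.3 CPM in scramble+ATRA and at 42.8 and 46.0 in shKDM3B+ATRA (log2 fold change -0.66, SE 0.12, adjusted p = 0.502). UQCRB of complex III was at 260 and 254 CPM in scramble+ATRA and at 155 and 164 in shKDM3B+ATRA (-0.69, SE 0.11, adjusted p = 0.502). In both genes the 2 scramble+ATRA libraries lay close together. COX4I1 of complex IV was at 444 and 303 CPM in scramble+ATRA and at 203 and 227 in shKDM3B+ATRA (-0.79, SE 0.24, adjusted p = 0.502). With the set as a term, 4, 1 and 2 of these genes were called lower and 0 higher, beside 6.14% of all genes called lower and 5.97% higher.

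With ATRA in shKDM3B cells, 2 nuclear complex I genes were called higher and 3 lower, 0 and 2 of complex III, and 1 and 3 of complex IV, with medians of -0.16, -0.0063 and 0.33, beside the 24% and 18.3% of all genes. With the set as a term, 0 were called higher and 2, 1 and 2 lower. COX5A rose with a log2 fold change of 0.85 (SE 0.13), and COX6A1 fell by 1.27 (SE 0.20). In scramble+ATRA replicates 1 and 2, COX5A was at 185 and 347 CPM and COX6A1 at 25.9 and 16.7, against 165 and 170 and 27.6 and 28.95 in scramble. In scramble, 1 complex I gene, NDUFB5, was called higher and 0 genes of the 3 lists lower, beside 15% and 10.8% of all genes. DESeq2 also called 2 complex IV genes higher, beside 14.3% of all genes. NDUFB5 was at 96.2 and 159 CPM in scramble+ATRA replicates 1 and 2 and at 89.3 and 59.7 in scramble, and with the set as a term 0 genes were called higher and 1 lower. In untreated cells the knockdown called 0 genes of the 3 lists, beside 7.01% of all genes with edgeR and 5.72% with DESeq2. In these lists 1, 1 and 0 had an unadjusted p under 0.05 with edgeR and DESeq2 called 0.

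Reads of mitochondrial genes can also fall on nuclear copies of mitochondrial DNA. MTND2P28, an unprocessed pseudogene on chromosome 1 of hg38 from 629640 to 630683, had 1468 to 3536 counts per library, equal to 3.02% to 4.82% of those of MT-ND2. MTCO1P12, from 631074 to 632616 on the same chromosome, had 0.105% to 0.289% of the counts of MT-CO1. MTND4P12 and MTND1P23 had at most 74 and 26 counts. Among these 4 copies, MTND2P28 thus had the most counts relative to its gene. How many reads were shared between a copy and its gene was not measured.

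The nuclear genes whose log2 CPM followed MT-ND6 most closely over the 8 libraries were FGFR1OP2, PPP1R2 and VPS29, with Pearson r of 0.991, 0.9901 and 0.9897. CYB561A3, NPRL3 and ZDHHC24 followed the summed other 9 genes, with r of 0.982, 0.962 and 0.961. These values were the highest among 13503 genes and describe 8 libraries that share treatment, scaling and the 2 sets given above.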

How the data were processed

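RNA-seq was performed on 8 libraries of NB4 cells. Per the methods and labels, the authors used the TruSeq RNA Sample Prep Kit and an Illumina HiSeq instrument for paired reads. Trim Galore (trimming), HISAT2 with hg38 (alignment) and HTSeq (counting) followed. The deposited files hold unnormalised whole-number counts per gene and 5 HTSeq summary lines, 29.8% to 62.2% of each table, which were left out of library sizes and tests. The strand setting of the counting is not given in the sources used here.

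Each comparison was fitted with its own 4 libraries (the interaction with all 8) in edgeR 4.0.16 on R 4.3.3, with filterByExpr, TMM scaling and the quasi-likelihood test over all genes named in all files of the fit. Genes were called at an unadjusted p under 0.05 and a fold change of at least 1.5, the study's thresholds, and adjusted p-values follow Benjamini-Hochberg. The SE is the log2 fold change divided by the square root of F. With 2 libraries per group, no exact permutation test can give a two-sided p under 0.333. CPM are TMM-scaled, and values per kb use GENCODE v44 gene lengths. Precision rests on gene totals of 9708739 to 33017787 and on 2 libraries per group. Replicate libraries differed beyond counting noise, with chi-square per degree of freedom of 5.59 to 102.

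The 10 genes, the other lists and the tests were chosen with earlier results of these data known. Named were the 10 genes, KDM3B, the other protein and ribosomal RNA genes of mitochondrial DNA, genes called from each list (at most 4 by p), up to 4 nuclear copies and the 3 genes most like MT-ND6 or the other 9. The scripts were tested on simulated counts. Alternatives were DESeq2 1.42.0 or its size factors, library size alone, scaling on nuclear genes, no filter, a threshold on adjusted p-values, a single fit over the 8 libraries, a replicate block and leaving out each library. The set by share outside genes (under or over 30%) as a term was added after seeing the data. Sequences were read from the hg38 reference.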

Additional observations from a re-analysis of the deposited data

How the results depend on the processing

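The number of the 10 genes called for ATRA in scramble cells went from 2 to 0 with adjusted p-values or the library set as a term and to 1 with library size alone. The genes called higher went from 15% of all to 7.84%, 12.9% and 13% in these settings. For ATRA in shKDM3B cells the number went from 6 to 5 with library size alone or without the filter. It went to 3 with all libraries in one fit and to 0 with the set as a term. There the genes called higher went from 24% of all to 22.7%, 19.1%, 20.3% and 11.9%. For ATRA in scramble the single fit called MT-ND2 and MT-CYB in place of MT-ND2 and MT-ND6, beside 16.9% of all genes called higher. The interaction called 1 gene, MT-ND6, higher without the filter, beside 1.74% of all genes called higher. When single libraries were left out, the number called was 1 in every case (from 0) for the knockdown in untreated cells, 0 to 5 under ATRA, 0 to 6 for ATRA in scramble, 3 to 6 for ATRA in shKDM3B and 0 to 4 for the interaction. In the same fits 6.49% to 11.6%, 0.889% to 36.4%, 11.1% to 38.4%, 37.3% to 46.1% and 2.04% to 17.4% of all genes were called. The causes of these changes were not tested. The 5 under ATRA and the 4 of the interaction came without scramble+ATRA replicate 2, the 6 for ATRA in scramble without scramble+ATRA replicate 1 and the 0 without scramble replicate 2. MT-ND2 lost its call for ATRA in scramble without either scramble library or without scramble+ATRA replicate 2. For ATRA in shKDM3B, the 3 (MT-ND5, MT-ND6 and MT-CYB) came without shKDM3B replicate 1, and MT-ND1 lost its call without shKDM3B+ATRA replicate 2. Scaling by DESeq2 size factors or on nuclear genes and the DESeq2 test changed none of these 5 numbers.

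Under a replicate block the numbers called were 0, 0, 3, 6 and 0, MT-CYB being added for ATRA in scramble, beside 8.96%, 3.68%, 23.2%, 42.7% and 3.98% of all genes. For the knockdown in untreated cells, 8 of the 10 genes then had an unadjusted p under 0.05 with edgeR (from 0), as had 3029 of 13855 genes (from 1411), with changes under 1.5-fold. The labels do not say that a number marks a shared culture or day, and with 2 pairs per comparison the numbers are not taken as pairing. The deviations of same-numbered libraries had correlations of 0.389 (knockdown, untreated), 0.0261 (knockdown, ATRA), -0.0731 (ATRA, scramble) and 0.183 (ATRA, shKDM3B) across genes.

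Some log2 fold changes turned their sign. For the knockdown in untreated cells, MT-CO1 was -0.013 with library size alone, and with a library left out MT-CO1 ranged from -0.18 to 0.24, MT-CYB from -0.19 to 0.081, MT-ND4 from -0.35 to 0.032, MT-ND5 from -0.14 to 0.55 and MT-ND6 from -1.21 to 0.62. MT-ND6 was called in 3 of the 4 left-out fits there, in both directions.

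For the knockdown under ATRA, MT-ND1, MT-ND5 and MT-CYB were -0.32, -0.0050 and -0.16 with the set as a term, MT-ND3 was 0.031 under the block and MT-ND4 0.0054 with library size alone. With a library left out, MT-ND1 ranged from -0.30 to 0.64, MT-ND3 from -0.46 to 0.53, MT-ND4 from -0.096 to 0.055 and MT-CYB from -0.15 to 0.62.

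For ATRA in scramble, MT-ND1, MT-ND3, MT-ND5 and MT-CO1 were -0.37, -0.13, -0.28 and -0.22 with the set as a term. MT-CO1 was -0.084, -0.040 and -0.024, and MT-CO3 was -0.075, -0.030 and -0.014, with library size alone, without the filter and with all libraries in one fit. With a library left out, MT-ND1 ranged from -0.36 to 0.62, MT-ND3 from -0.12 to 0.91, MT-ND4 from -0.25 to 0.052, MT-ND5 from -0.27 to 1.33, MT-CO1 from -0.21 to 0.22 and MT-CO3 from -0.043 to 0.054.

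For ATRA in shKDM3B, MT-ND1, MT-ND3, MT-ND4, MT-ND5 and MT-CO1 were -0.35, -0.33, -0.17, -0.45 and -0.14 with the set as a term, and MT-ND4 was -0.0044 with all libraries in one fit and ranged from -0.18 to 0.24 with a library left out.

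For the interaction, MT-ND3, MT-ND5, MT-CO2 and MT-CYB were -0.20, -0.17, -0.015 and -0.095 with the set as a term, and MT-ND2 was 0.0087 with library size alone. With a library left out, MT-ND2 ranged from -0.27 to 0.17, MT-ND3 from -0.20 to 0.79, MT-ND4 from -0.057 to 0.36, MT-ND5 from -0.16 to 1.39, MT-ND6 from -0.012 to 1.81, MT-CO2 from -0.10 to 0.19 and MT-CYB from -0.090 to 0.68. The ratio of MT-ND6 between the scramble+ATRA libraries turned from 0.813 against MT-ND5 to 1.905 against the other 9 genes.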
